A study of Mus musculus with 14 samples.

Results

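The comparison described here asks what early vitamin C (VC) added to trichostatin A (TSA) changed in single mouse embryos made by somatic cell nuclear transfer (SCNT). It sets the 2 embryos given TSA and VC together, TSA(0-8 h)+VC(0-8 h), against the 3 embryos given TSA alone, TSA(0-8 h). These were 5 of the 14 embryos sequenced, and the transcripts at 1 RPKM or more in at least 2 of the 5 were tested, which kept 6100 of the 25650 entries. RPKM is the number of reads on a transcript scaled to its length and to the total of its library.

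In SCNT the nucleus of a donor cell, here a cumulus cell, is placed in an oocyte whose own chromosomes were removed, and the oocyte is then activated. All 5 embryos were of the B6D2F1 strain, were cultured in mKSOM with deionized serum albumin, received 50 nM TSA from 0 to 8 h after egg activation, and were collected singly at the two-cell stage. The early VC embryos also received VC at 10 µg/ml over the same 8 h. The labels give collection as 28 h after nuclear transfer and the study's methods count the same hours from egg activation. Each library is 1 embryo, and nothing in the labels says that embryos of a group came from separate nuclear transfer sessions. The study's text describes independent experiments for the late VC group and gives nothing of the kind for these groups, so p-values measure the spread between these embryos. An RPKM value is a share of the RNA of a whole embryo, so more RNA in both blastomeres and much more in 1 of them cannot be told apart. By the study's methods, only part of the RNA of each embryo entered its library, which was then amplified by PCR. The part of these steps in values of 0 or a few reads was not tested.

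TSA inhibits histone deacetylases, and so raises histone acetylation and opens chromatin. VC (ascorbate) keeps iron in the reduced state that the Fe2+ and oxoglutarate-dependent dioxygenases need, among them the JmjC histone demethylases and the TET enzymes that oxidize methylated DNA, and it is also an antioxidant. At the two-cell stage the mouse embryo destroys RNA inherited from the oocyte and starts its own transcription.

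The reads counted per embryo, recovered from the steps of the RPKM values, ranged from 3021540 to 13102176. The early VC embryos had 3262558 (replicate 1) and 13102176 (replicate 2), and the TSA embryos had 3021540, 7813871 and 11753807. Libraries that share an identifier in their deposited names are called a pool here, and the labels do not say what the identifier stands for. Of these 5 embryos, both replicates 1 were in pool 1 and both replicates 2 in pool 2, while TSA(0-8 h) replicate 3 was in a pool that held no early VC embryo. The labelled stage was checked against marker genes. Of the oocyte and two-cell genes, Bmp15, an oocyte growth factor, was at 111 RPKM or more in all 5 embryos, Zfp352, a two-cell transcript, was at 1.65 RPKM or more, and Zscan4c and Zscan4d, the best known two-cell genes, were below 0.1 RPKM in all 5. The oocyte gene Nlrp5 was at 1.397 RPKM or more in all 5. The other oocyte markers, Gdf9, Zp1, Zp2, Zp3, Tle6, Ooep, Padi6 and Mos, were each below 1 RPKM in at least 1 embryo. So were the two-cell markers Tdpoz3, Tdpoz4, Usp17lc, Tcstv1 and Tcstv3. Ooep, for example, ranged from 0 in TSA(0-8 h) replicate 2 to 604.1 RPKM in replicate 3. Of the markers of cumulus cells, the donor cell type and a possible contaminant, Amh, Fshr, Hsd3b1, Inha, Ptgs2, Tnfaip6 and Foxl2 were at 0 in all 5 embryos. Cyp11a1, Cyp19a1, Star and Ptx3 were below 0.1 RPKM in all 5, and Has2 reached 1.816 RPKM in TSA(0-8 h)+VC(0-8 h) replicate 2. Amhr2 stood at 144 RPKM in TSA(0-8 h) replicate 3 and at 8.898 RPKM or less in the others. Of the other cumulus genes tested, Hmgcs1 reached 66.75, Nr5a2 57.8 and Runx2 39.22 RPKM, all in TSA(0-8 h)+VC(0-8 h) replicate 2, and Kitl reached 20.92 RPKM in TSA(0-8 h) replicate 2. The summed RPKM of the 46 cumulus entries was 23.1 and 253.6 in the early VC embryos and 70.3, 92.1 and 197.1 in the TSA embryos, and its part in the results was not tested.

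More transcripts were detected when VC was added early, by very different margins in the 2 pools. At 1 RPKM or more there were 4864 and 6728 transcripts in the early VC embryos, against 4198, 3556 and 4249 with TSA alone. Both early VC embryos stood above all 3 TSA embryos, and the means were 5796 ± 1318 (SD, n = 2) and 4001 ± 386 (SD, n = 3). The difference of the means was 1795 transcripts (two-sided exact permutation test, p = 0.2, the smallest p that 10 splits of 5 embryos can give). Within pool 1, at nearly equal depth, the difference was 666 transcripts. Within pool 2, where the early VC embryo was also the more deeply sequenced, it was 3172. The part of depth in the number detected was not tested.

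**Figure D1:**
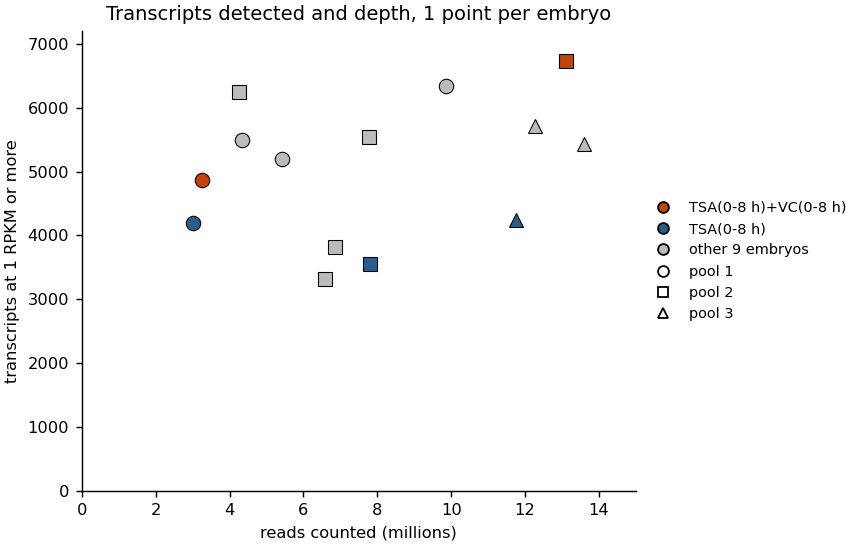
Transcripts at 1 RPKM or more (y axis) against the reads counted (x axis), 1 point per embryo, coloured by group and shaped by pool, with the 9 embryos of the other groups in grey. The 2 TSA(0-8 h)+VC(0-8 h) embryos, at 4864 and 6728, lie above the 3 TSA(0-8 h) embryos, which lie between 3556 and 4249.

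No transcript passed the test for a difference between the groups. With limma's moderated test on log2(RPKM + 1) and Benjamini-Hochberg adjustment at 0.05, 0 of the 6100 transcripts were higher and 0 lower (0% each way). At an unadjusted p under 0.05 there were 409 higher (6.7% of those tested) and 33 lower (0.541%). The median residual SD was 2.21 on the log2 scale. Fitted instead to the recovered reads with limma-voom, 80 transcripts were higher and 5 lower at an adjusted p under 0.05.

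The tilt toward higher values depended on the scaling of the libraries. The median difference over all tested transcripts was 0.71 on the log2(RPKM + 1) scale, and 67% of them were above 0. Quantile normalization moved that median to -0.03 and median-ratio scaling moved it to -0.11, and the counts at an unadjusted p under 0.05 became 146 higher and 69 lower with the first and 175 higher and 99 lower with the second. Of these the higher transcripts made up 67.9% and 63.9%, against 92.5% as deposited.

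The filter also favoured one direction. Of the 6100 transcripts, 454 (7.44%) reached 1 RPKM in both early VC embryos and in no TSA embryo, so they could pass only by differing, and 324 of the 409 were among them. At the other end, 23 transcripts reached 1 RPKM in all 3 TSA embryos and in neither early VC embryo. Among the 1391 transcripts at 1 RPKM or more in all 5 embryos, 14 were higher and 20 lower at an unadjusted p under 0.05, with a median difference of 0.33. Over all 6100, every early VC embryo was above every TSA embryo for 1050 transcripts (17.2%) and below for 204 (3.34%).

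The 2 pools gave nearly unrelated differences. Between the replicate 1 embryos, in pool 1, the median difference was 0.00 on the log2(RPKM + 1) scale, and between the replicate 2 embryos, in pool 2, it was 1.57. Across the 6100 transcripts the differences of the 2 pairs had a Pearson r of 0.018 and a Spearman correlation of 0.024, as a description over transcripts that share the same 4 libraries. They were above 0 in both pools for 2093 transcripts, below 0 in both for 861 and of opposite sign for 2659. Restricting to the 1761 transcripts with a mean of 50 RPKM or more gave an r of 0.016, with 451 above and 432 below 0 in both pools and 800 of opposite sign. Among these 5, each embryo with a partner in its pool correlated best with that partner: over all entries the Spearman correlation was 0.642 between the 2 early VC embryos, but 0.671 and 0.747 between an early VC embryo and the TSA embryo of its own pool. Among the 3 TSA embryos, each from a different pool, it was 0.593 to 0.617. With the pool as a term in the fit, 1 transcript was higher and 1 lower at an adjusted p under 0.05. They were Lars2 and Omt2a, described below.

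**Figure D2:**
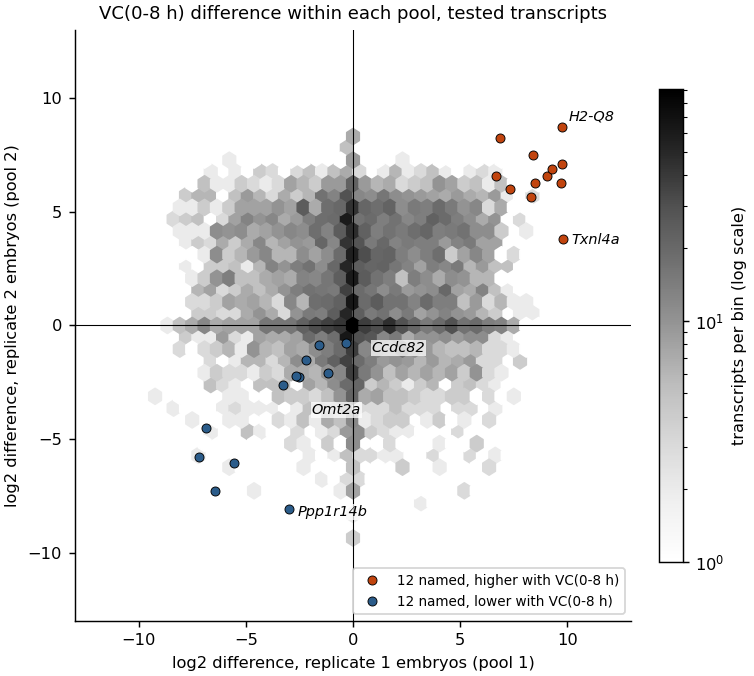
Log2(RPKM + 1) difference of the early VC embryo from the TSA embryo within pool 1 (x axis) and within pool 2 (y axis) for the 6100 tested transcripts, shaded by the number per bin on a log scale, with the named transcripts coloured. The transcripts spread over all 4 quadrants (Pearson r of 0.018), and the 12 higher and 12 lower named ones lie where both pairs differ in the same direction, which their choice by groups that do not overlap fixes.

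A pair of neighbouring oocyte genes was lower in both early VC embryos, without passing the test. Omt2a, which had the smallest p-value of the lower transcripts, is named by that, and Omt2b through the oocyte gene list. Omt2a (oocyte maturation alpha, NM_001164523; mm9 chr9:78159779-78162604, minus strand, protein-coding) is transcribed in the growing oocyte and inherited by the embryo. It was at 1106 and 938 RPKM in the early VC embryos and at 6390, 4601 and 2600.5 RPKM in the TSA embryos, so the groups did not overlap. These values rested on 2202 and 7498 reads, and on 11778, 21929 and 18645 reads. The difference was -2.06 ± 0.32 (SE) on the log2(RPKM + 1) scale (limma, adjusted p = 0.174), and -2.53 and -2.29 within pools 1 and 2. The call depended on the model: the adjusted p was 0.00342 with the pool as a term in the fit and ranged from 1.06e-18 to 0.859 over 17 alternatives, 6 of which were past the threshold. The smallest of these came from leaving out TSA(0-8 h)+VC(0-8 h) replicate 1, which left that group with 1 embryo. The other Omt2a entry (NM_001111286) was at 458.5 and 403.4 RPKM with early VC against 3988, 1624.7 and 230.3 RPKM with TSA alone. There the groups overlapped through TSA(0-8 h) replicate 3. With both entries summed, Omt2a was at 1564.9 and 1341.5 RPKM against 10378, 6225.4 and 2830.7 RPKM, without overlap.

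Omt2b (oocyte maturation beta, NM_205822; mm9 chr9:78175396-78177427, plus strand) lies beside Omt2a in a head-to-head arrangement. It was at 1225 and 1308 RPKM in the early VC embryos and at 5030, 2008 and 1662 RPKM in the TSA embryos. All 3 TSA embryos were again higher, and the difference was -1.02 ± 0.40 (SE; limma, adjusted p = 0.671). The paralogs share sequence: 24.8% of the 50-base stretches of Omt2a transcripts and 45.7% of those of Omt2b also occur in the other gene, so reads could have been split between them. Within pools its difference was -2.04 and -0.62. The upstream sequences are shown because the genes lie side by side and both were lower. They are the 250 bases before each annotated start, from RefSeq on GRCm38.p6, written 5′ to 3′ along the gene, with each CANNTG (E-box) match in capitals. They lie at chr9:78314049-78314298 (minus strand) for Omt2a and chr9:78327780-78328029 (plus strand) for Omt2b.
Omt2a: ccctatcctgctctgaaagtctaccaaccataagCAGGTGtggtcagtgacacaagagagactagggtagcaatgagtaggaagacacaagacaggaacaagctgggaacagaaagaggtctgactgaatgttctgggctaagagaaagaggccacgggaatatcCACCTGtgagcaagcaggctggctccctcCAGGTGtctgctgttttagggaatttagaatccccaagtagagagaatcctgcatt
Omt2b: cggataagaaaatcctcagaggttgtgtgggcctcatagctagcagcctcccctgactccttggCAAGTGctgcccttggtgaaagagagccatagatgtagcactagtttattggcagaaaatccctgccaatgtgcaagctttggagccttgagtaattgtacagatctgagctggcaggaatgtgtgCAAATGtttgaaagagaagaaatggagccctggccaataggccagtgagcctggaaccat
The first holds 3 E-box matches and the second 2, counted on both strands, and neither holds TATAAA. Of 32851 upstream sequences of this length, 66.2% hold CANNTG and 12.4% hold TATAAA, so an E-box match is common.

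Ccdc82 (NM_025534), a coiled-coil protein gene, was the most abundant entry in all 14 embryos of the series. It was at 11327 and 9043 RPKM with early VC and at 14307, 15388 and 15406 RPKM with TSA alone, a difference of -0.57 ± 0.09 (SE; limma, adjusted p = 0.174). Its place at the top made it exactly equal in all embryos after quantile normalization. With the pool as a term the adjusted p was 0.85, and over the 17 alternatives it ranged from 7.16e-24 to 1, with 5 past the threshold.

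Ptma, Hpf1 and Pdcd2 were expressed in all 5 embryos and lower in both early VC embryos. Ptma (prothymosin alpha, NM_008972; mm9 chr1:88423311-88427273, plus strand), an acidic nuclear protein that binds linker histone H1, was at 337 and 594 RPKM with early VC and at 1549, 1684 and 926.5 RPKM with TSA alone. The difference was -1.58 ± 0.44 (SE; limma, adjusted p = 0.671). Hpf1 (NM_028299), the factor that directs PARP1 to ADP-ribosylate serines, was at 355 and 258 RPKM against 812, 1104 and 777 RPKM. Pdcd2 (NM_008799), a chaperone of a small ribosomal subunit protein, was at 45.2 and 58.0 RPKM against 451, 363 and 322 RPKM. None of these 3 overlapped between the groups, and each adjusted p was 0.671.

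Several of the lower transcripts were nearly absent from the early VC embryos. Atl1 (NM_178628), a GTPase that shapes the endoplasmic reticulum, had 2 and 3 reads in the early VC embryos and 897, 3759 and 3384 reads in the TSA embryos, that is 0.217 and 0.0813 RPKM against 105, 171 and 102 RPKM. Atp1b1 (NM_009721), a subunit of the sodium pump, had 1 and 28 reads against 1178, 1969 and 2454 reads. Smtn (NM_013870), a cytoskeletal protein of smooth muscle, had 15 and 2 reads against 1105, 1768 and 4727 reads. The adjusted p was 0.671 for each, although the fitted differences were between -5.95 and -6.75 with SEs of 1.99 to 2.02. Ppp1r14b (NM_008889), an inhibitor of protein phosphatase 1, was at 39.4 and 0 RPKM against 269 to 329 RPKM. Degs1 (NM_007853), the desaturase that makes ceramide, was at 0.459 and 5.56 RPKM against 116 to 169 RPKM. Prdx2, described below with the antioxidant genes, and Tlcd2 (NM_027249), at 339 and 815 RPKM against 1035, 1465 and 1176 RPKM, complete the 12.

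Of the 12 higher transcripts with the smallest p-values, 6 were below 1 RPKM in all 3 TSA embryos, so they passed the filter only through the early VC pair. H2-Q8 (NM_023124; mm9 chr17:35531071-35534971, plus strand, annotated as a processed transcript), a class I gene of the major histocompatibility complex, was at 877 and 425.5 RPKM with early VC and at 0 in all 3 TSA embryos. It had 269 and 524 reads, and its mean of 651.3 RPKM was at least 113-fold higher than the mean floor of 5.79 RPKM that 3 reads per library are worth in the TSA embryos. The fitted difference was 9.26 ± 2.14 (SE; limma, adjusted p = 0.671). The length counted for this entry was 94 bases, and 26.7% of the 50-base stretches of the gene occur in other genes, most often in H2-Q7, so its identity among class I genes is uncertain.

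Short counted lengths were common among these transcripts. Zkscan5 (NM_016683; mm9 chr5:145965431-145982619, plus strand), a zinc-finger protein gene, was at 872 and 136 RPKM against 0 in all 3 TSA embryos, from 623 and 390 reads on 219 bases. Its mean of 503.9 RPKM was at least 203-fold higher than its floor of 2.48 RPKM. Its other entry (NM_001167944) was at 108 and 0.149 RPKM against 0.463, 1.002 and 2.211 RPKM, and there the groups overlapped. Ankrd6 (NM_001012451), an ankyrin repeat protein of Wnt signalling, was at 4260.5 and 77.3 RPKM against 4.14, 0 and 0 RPKM, on 80 bases. Txnl4a (NM_001042408), a protein of the U5 splicing particle, was at 897 and 636 RPKM against 0, 44.8 and 0 RPKM, also on 80 bases. Nfe2l1 (NM_008686), an activator of proteasome genes, was at 631 and 319 RPKM against 0, 1.71 and 23.8 RPKM, on 150 bases. Thus 5 of the 12 entries were counted on fewer than 300 bases, against 3.25% of all tested entries, and 0 of the 12 lower ones were. The length counted is the one recovered from the steps of the RPKM values, and the value of such an entry stands for that short stretch. With all entries of the gene summed, the contrast was smaller. Txnl4a was then at 1073.5 and 727 RPKM against 242, 124 and 16.6 RPKM, and Nfe2l1 at 839 and 1177 RPKM against 41.6, 129 and 223 RPKM. Ankrd6 was at 4359.9 and 138 RPKM against 5.512, 100.02 and 80 RPKM.

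Among entries counted on a longer stretch, Lamtor1 (NM_025605), which anchors the Ragulator complex on lysosomes, was counted on 1186 bases. Lamtor1 had 2036 and 3115 reads against 2, 1 and 1, that is 526 and 200.5 RPKM against 0.0717 to 0.558 RPKM. Tipin (NM_025372), a protein of the replication fork, had 1628 and 2146 reads against 11, 4 and 0. Bclaf1 (NM_001025393), a nuclear protein of RNA processing and apoptosis, was at 275 and 279 RPKM against 0.731, 3.39 and 0.376 RPKM. Both early VC embryos were high and all 3 TSA embryos low in each case, but with the 2 entries of Bclaf1 summed the values were 360 and 348 RPKM against 181, 5.32 and 116 RPKM. Snrpe (NM_009227), an Sm core protein of the spliceosome, was at 531 and 121 RPKM against at most 0.26 RPKM. Atpif1 (NM_007512; mm9 chr4:132086470-132089574, minus strand), the inhibitor of mitochondrial ATP synthase, was at 115 and 451 RPKM against at most 0.475 RPKM, and Bola2 (NM_175103), a partner of glutaredoxins in iron handling, was at 356 and 107 RPKM against at most 0.38 RPKM. With differences between 6.79 and 9.26 and SEs between 2.07 and 2.38, all 12 had an adjusted p of 0.671 in limma. Past the threshold under some of the alternatives were 8 of the 12, each of them under limma-voom on the recovered reads. Txnl4a, Ankrd6, Bclaf1 and Nfe2l1 were under none.

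**Figure D3:**
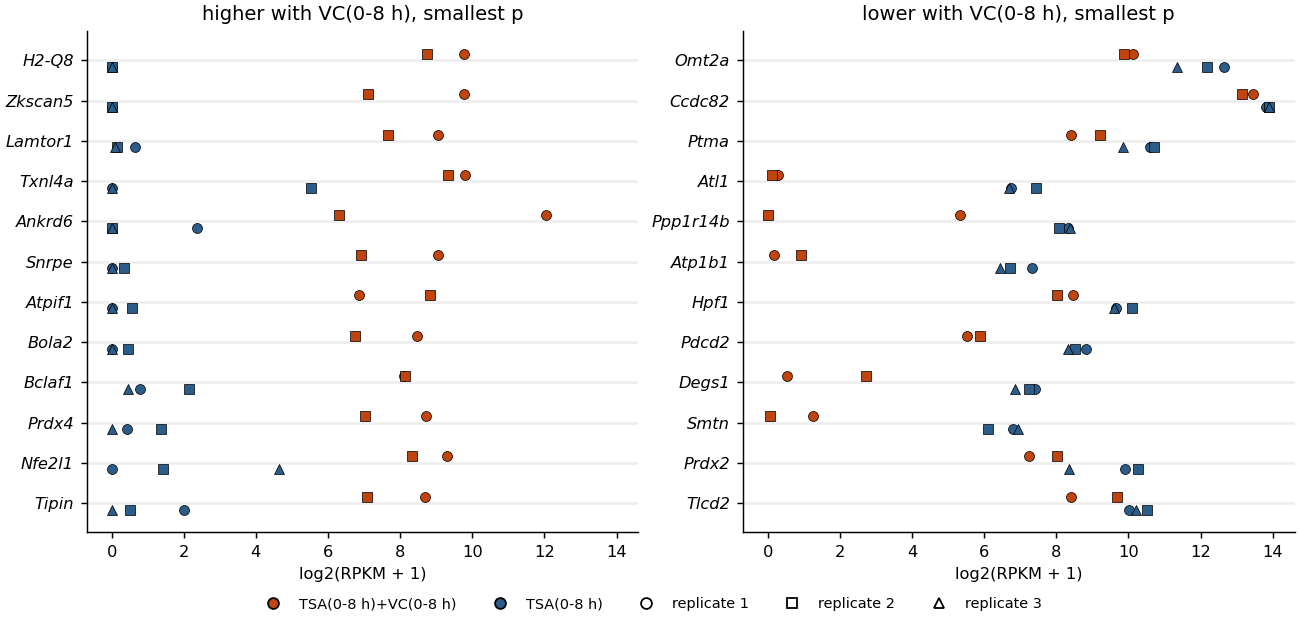
Log2(RPKM + 1) of the 12 higher (left) and 12 lower (right) named transcripts, 1 point per embryo, with early VC embryos in orange and TSA embryos in blue and the replicate number as the shape. The higher transcripts lie mostly near 0 in the TSA embryos, whereas Omt2a, Ccdc82, Ptma, Hpf1, Pdcd2, Prdx2 and Tlcd2 were abundant in both groups.

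Lars2 (NM_153168), the mitochondrial leucyl-tRNA synthetase, is named because it was the higher call with the pool as a term, and was thus chosen after its values were seen. It was at 2303 and 913 RPKM with early VC and at 74.8, 23.1 and 2114 RPKM with TSA alone. The groups overlapped through TSA(0-8 h) replicate 3, which that term removes from the contrast because its pool held no early VC embryo. The difference was 3.21 without the term (limma, adjusted p = 0.681) and 5.08 with it (adjusted p = 0.000786). Lars2 and both entries of Srsf5, a splicing factor, were also the 3 higher calls when 1 RPKM was required in at least 3 of the 5 embryos, an alternative chosen after seeing the data. Srsf5 (NM_001079694) was at 5428 and 1311 RPKM with early VC and at 1232, 537 and 19.6 RPKM with TSA alone.

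The other 9 embryos were set beside both groups for the 12 higher and 12 lower transcripts. That the early VC and TSA embryos lay apart was fixed by the choice of these transcripts, so only the place of the other 9 is added here. For 8 of the 12 lower transcripts, Omt2a, Ptma, Atl1, Ppp1r14b, Hpf1, Pdcd2, Degs1 and Smtn, the 3 TSA embryos were above all 11 others, control embryos included. For 0 of the 12 were the early VC embryos below all 12 others. Ptma, for example, was at 39.9, 77.8 and 172 RPKM in the 3 control embryos, all below the early VC embryos. Among the higher transcripts, the early VC embryos were above all 12 others for H2-Q8, Zkscan5, Lamtor1, Ankrd6, Snrpe and Prdx4, 6 of the 12. Only for Tipin were the 3 TSA embryos below all 11 others. H2-Q8, Zkscan5, Lamtor1 and Snrpe were below 1 RPKM in all 3 TSA embryos, so they passed the filter only through the early VC pair. How many would stand apart in this way without any effect of VC was not tested. Over all transcripts whose groups did not overlap, the early VC pair stood above all 12 others for 116 of 1050 and below them for 1 of 204, and the TSA trio stood above all 11 others for 24 of 204 and below them for 32 of 1050.

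**Figure D4:**
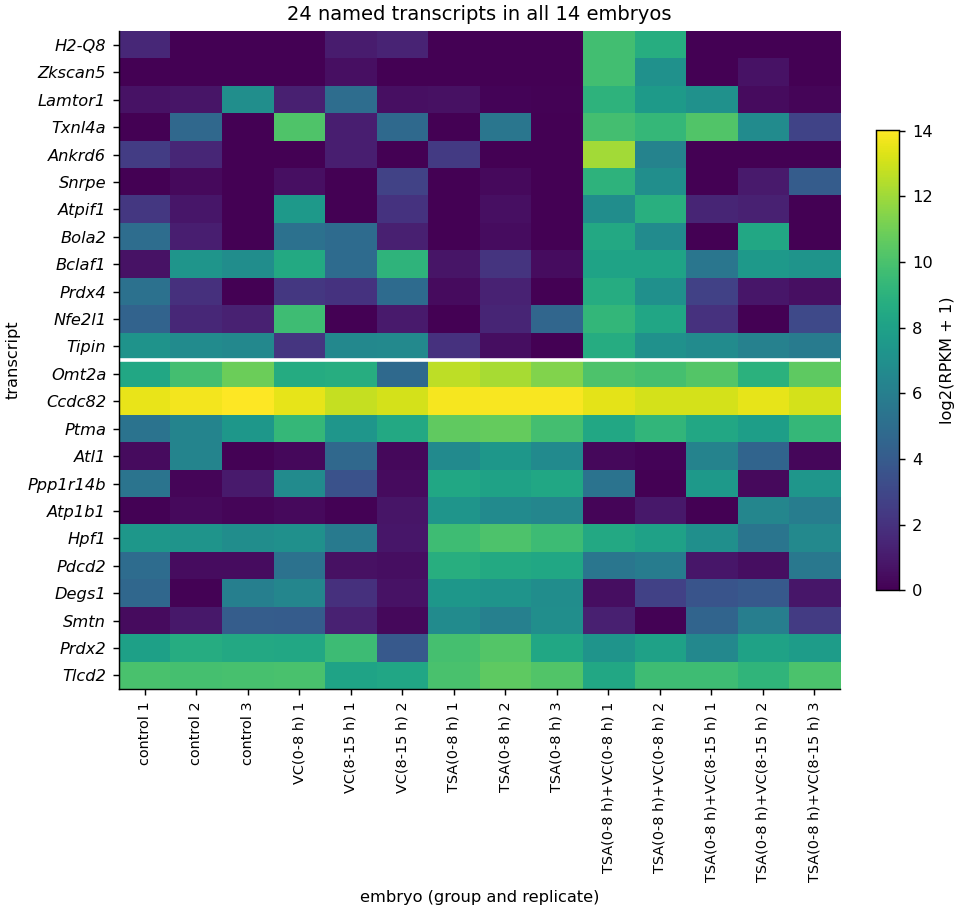
Log2(RPKM + 1) of the 24 named transcripts (rows, higher ones above the white line) in all 14 embryos (columns, by group and replicate). H2-Q8 and Zkscan5 are bright only in the 2 TSA(0-8 h)+VC(0-8 h) columns, and Omt2a, Ptma and Pdcd2 are brightest in the 3 TSA(0-8 h) columns.

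The gene lists are described by their counts and medians, and 0 of their members passed the adjusted threshold. Their counts stand beside the shares of all tested transcripts given above, 6.7% higher and 0.541% lower at an unadjusted p under 0.05, 17.2% above and 3.34% below without overlap, and 67% with a difference above 0. Medians within pools 1 and 2 stand beside 0.0 and 1.57, those of all tested. Genes of two-cell genome activation were among both the higher and the lower. Of 38 entries of the list, 28 were tested. At an unadjusted p under 0.05, 3 were higher and 1 lower, 5 stood above and 2 below without overlap (17.9% above, against 17.2% of all tested), and the median difference was 1.11 against 0.71 for all tested. Within pools 1 and 2 the medians of this list were 0.36 and 1.43. Obox6 (NM_145710), an oocyte-specific homeobox family member, was at 119 and 183 RPKM with early VC and at 1.73, 1.82 and 1.08 RPKM with TSA alone, a difference of 5.88 ± 2.14 (SE). Usp17lb (NM_201409), a deubiquitinase of a family with close copies (20.1% of its 50-base stretches occur in other genes), was at 312 and 25.2 RPKM against at most 1.65 RPKM. Zfp352 (NM_153102), a zinc-finger gene switched on in two-cell embryos, went the other way, at 48.0 and 1.65 RPKM against 135, 155 and 225 RPKM, a difference of -3.89 ± 1.68 (SE). All 3 had an adjusted p of 0.671 in limma.

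Over all 5 embryos, the median difference of oocyte transcripts was below that of all tested. Of 72 entries, 49 were tested, with 3 higher and 2 lower at an unadjusted p under 0.05, 8 above and 5 below without overlap (16.3% above, against 17.2% of all tested), and a median difference of 0.24 against 0.71 for all tested. The 2 lower ones were Omt2a and Omt2b. Within pools 1 and 2 the medians of the oocyte list were 0.0 and 0.09, against 0.0 and 1.57 for all tested. Zfp57 (NM_001013745), the factor that keeps imprinted regions methylated, was at 2362 and 719 RPKM with early VC and at 120, 753 and 419 RPKM with TSA alone. Its groups overlapped, and the difference was 4.28 in pool 1 and -0.07 in pool 2. Rfpl4 (NM_001145013), an oocyte ubiquitin ligase, was at 39.2 and 33.2 RPKM against at most 0.797 RPKM. It was 1 of 4 entries of the list that reached 1 RPKM in both early VC embryos only, so the filter fixed that its groups separate.

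For the dioxygenases that VC serves, differences were mostly above 0 without passing the test. Of the 30 entries for Fe2+ and oxoglutarate-dependent histone demethylases, 18 were tested. Their differences were above 0 for 16, where 67% of all tested were, with a median of 1.86 on the log2(RPKM + 1) scale against 0.71 for all tested, but the median was 0.04 in pool 1 and 4.24 in pool 2, where the medians for all tested transcripts were 0.00 and 1.57. Kdm5a (NM_145997), a demethylase of H3K4, was at 50.3 and 44.9 RPKM with early VC and at 2.26, 0.0467 and 0.225 RPKM with TSA alone (limma, adjusted p = 0.671). Phf8 (NM_177201), which demethylates H3K9 and H4K20, was at 91.5 and 50.1 RPKM against 0.177, 1.37 and 28.8 RPKM. The list had 1 member higher and 0 lower at an unadjusted p under 0.05, and 4 above and 0 below without overlap (22.2% above, against 17.2% of all tested).

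Kdm3b (NM_001081256), the H3K9 demethylase to which the study draws attention, did not separate the groups. The study reports its upregulation after TSA with late VC, and that statement does not cover early VC. Kdm3b was at 0.216 and 7.08 RPKM with early VC and at 15.4, 0.054 and 0.0239 RPKM with TSA alone. Its difference was 0.27 ± 1.70 (SE; limma, adjusted p = 0.997), and it was -3.75 in pool 1 and 2.94 in pool 2. Its sign turned with the scaling, to -0.64 with quantile normalization and -0.37 with median-ratio scaling. The embryos of each group differed among themselves more than the groups did.

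Genes of DNA and of H3K9 methylation also had medians above that of all tested, with the higher values in pool 2. Of the 12 tested transcripts for DNA methylation and hydroxymethylation, 11 were above 0, with a median of 1.72 against 0.71 for all tested and medians of 0.32 and 3.00 in pools 1 and 2. Mbd3 (NM_013595), a subunit of the NuRD complex, was at 176 and 48.6 RPKM with early VC and at 4.17, 0 and 0.321 RPKM with TSA alone, and was the only one of the 12 with an unadjusted p under 0.05. Of the 17 tested transcripts for H3K9 methyltransferases and HP1, 0 had such a p either way, and the median was 1.17 against 0.71, with -0.60 in pool 1 and 3.20 in pool 2. Cbx3 (NM_007624), an HP1 protein, was at 137 and 22.6 RPKM against 173, 191 and 55.4 RPKM.

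The list of histone deacetylases and acetyltransferases, which also holds Sirt1, Sirt7 and corepressors such as Ncor1, had 31 tested transcripts. Their median was 0.87 against 0.71 for all tested. Within pools 1 and 2 it was 0.57 and 0.81, against 0.0 and 1.57 for all tested. At an unadjusted p under 0.05, 3 were higher and 0 lower, and 6 stood above and 1 below without overlap (19.4% above, against 17.2% of all tested). Ncor1 (NM_001252313), the corepressor that carries HDAC3, was at 91.9 and 115 RPKM with early VC and at 0.873, 0.45 and 0.524 RPKM with TSA alone, a difference of 6.02 ± 2.21 (SE). Sirt7 (NM_153056), a nucleolar deacetylase, was at 21.5 and 5.47 RPKM against at most 0.0992 RPKM. Kat5 (NM_001199247), an acetyltransferase of H4 and H2A, was at 0 and 0.37 RPKM against 3.92, 18.8 and 147 RPKM. The first Ncor1 entry and that of Sirt7 reached 1 RPKM in the early VC pair only, and that of Kat5 in the TSA embryos only, so the filter fixed that their groups separate. Their adjusted p was 0.671, 0.671 and 0.815 in limma.

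**Figure D5:**
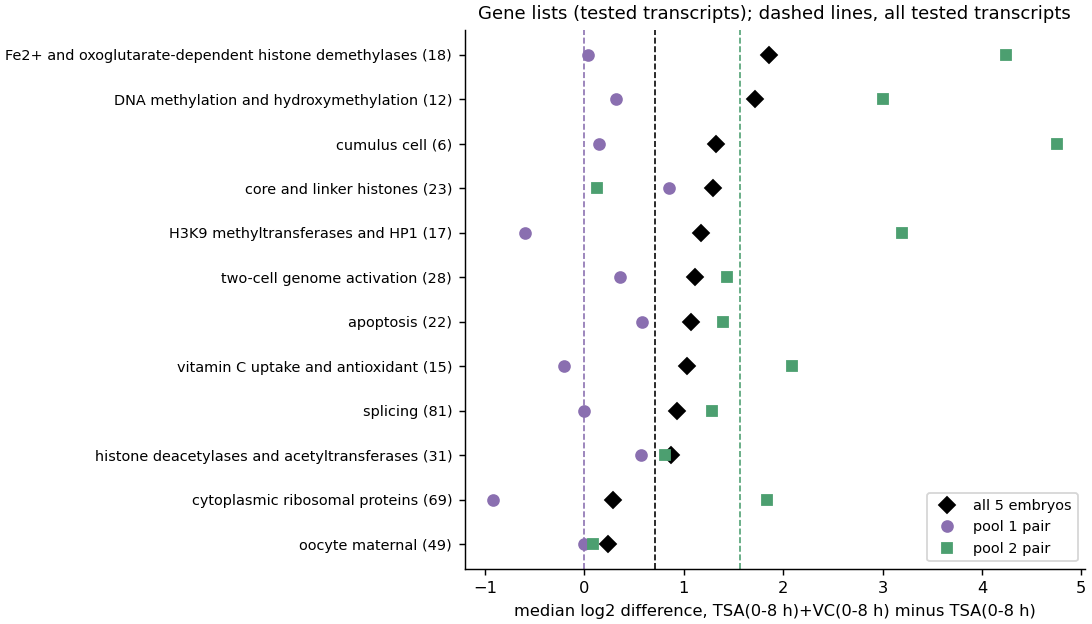
Median log2(RPKM + 1) difference of the tested transcripts of 12 gene lists (number tested in brackets) over all 5 embryos (diamonds), within pool 1 (circles) and within pool 2 (squares), with dashed lines at the medians of all tested transcripts, 0.71, 0.00 and 1.57. For most lists the medians of the pools lie far apart, and the demethylase list ranges from 0.04 in pool 1 to 4.24 in pool 2.

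Antioxidant genes included a peroxiredoxin in each direction. Prdx4 (NM_016764), the peroxiredoxin of the endoplasmic reticulum, was at 417.5 and 129 RPKM with early VC and at 0.339, 1.58 and 0 RPKM with TSA alone, a difference of 7.27 ± 2.22 (SE). Prdx2 (NM_011563), a cytosolic peroxiredoxin, was at 152 and 258 RPKM against 951, 1222 and 326 RPKM, a difference of -1.87 ± 0.70 (SE). Both had the same direction in each pool, which their choice by groups that do not overlap fixes, and both had an adjusted p of 0.671 in limma. Gpx1 (NM_008160), a glutathione peroxidase, was at 101 and 40.8 RPKM against 0, 0.612 and 7.17 RPKM. Of the 50 entries for VC uptake and antioxidant defence, 15 were tested, 1 higher and 1 lower at an unadjusted p under 0.05, with a median of 1.03 against 0.71 for all tested. Within pools 1 and 2 the medians were -0.21 and 2.09.

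Among 22 tested transcripts of apoptosis, 2 were higher and 0 lower at an unadjusted p under 0.05, and the median was 1.07 against 0.71 for all tested. Within pools 1 and 2 the medians were 0.58 and 1.39. Dffa (NM_001025296), the inhibitor of the caspase-activated DNase, was at 44.98 and 60.6 RPKM with early VC and below 0.4 RPKM in all 3 TSA embryos. Birc5 (NM_009689), survivin, was at 250 and 131 RPKM against 0.341, 64.5 and 0.0875 RPKM. The 23 tested histone transcripts had a median of 1.29 against 0.71 and 1 member with an unadjusted p under 0.05, H2bc12 (NM_175665), at 337 and 78.7 RPKM against 6.08, 0.672 and 12.5 RPKM, 73.7% of whose 50-base stretches occur in other genes. Within pools 1 and 2 the histone medians were 0.85 and 0.13, against 0.0 and 1.57 for all tested. The oocyte linker histone H1f8 (NM_138311) was at 2.2 and 1.58 RPKM against 0 in all 3 TSA embryos. Dffa and H1f8 reached 1 RPKM in the early VC pair only, so the filter fixed their separation too.

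For splicing and ribosomal proteins, the shares of transcripts that stood above without overlap were 16% and 15.9%, against 17.2% of all tested. Of 81 tested splicing transcripts, 4 were higher and 1 lower at an unadjusted p under 0.05, with a median of 0.93 against 0.71 for all tested, and 6 reached 1 RPKM in the early VC pair only, Sf3a2 among them. Within pools 1 and 2 the splicing medians were 0.0 and 1.28, against 0.0 and 1.57 for all tested. Sf3a2 (NM_013651), a protein of the U2 particle, was at 150 and 70.4 RPKM with early VC and at most 0.459 RPKM with TSA alone, and Rbm8a (NM_025875), of the exon junction complex, was at 12.2 and 2.51 RPKM against 116, 126 and 77.9 RPKM. The other Rbm8a entry (NM_001102407) was at 251.5 and 0 RPKM against 8.49, 0 and 0 RPKM, and with both summed the groups overlapped. Of 69 tested ribosomal protein transcripts, 4 were higher and 0 lower, with a median of 0.29 against 0.71, and of -0.92 in pool 1 and 1.84 in pool 2. Rpl32 (NM_172086) was at 68.1 and 455.5 RPKM against 3.94, 2.03 and 0 RPKM, and Rps12 (NM_011295), 92.3% of whose 50-base stretches occur in other genes, was at 0 and 16.4 RPKM against 482, 51.4 and 34.8 RPKM. Of 46 entries of cumulus cell genes, 6 were tested, and none had an unadjusted p under 0.05.

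The timing of VC was compared by setting the early VC embryos against the 3 late VC embryos, which received the same TSA and then VC at 10 µg/ml from 8 to 15 h. Of 7090 transcripts tested in the same way, 0 were higher and 1 was lower with early VC at an adjusted p under 0.05 (0% and 0.0141%). At an unadjusted p under 0.05 there were 189 higher (2.67%) and 119 lower (1.68%). The groups did not overlap for 666 higher (9.39%) and 531 lower (7.49%) transcripts, and 49.9% of the differences were above 0. With limma-voom on the recovered reads, 22 were higher and 8 lower. The transcript past the threshold was Arhgap1 (NM_001145902; mm9 chr2:91490017-91512483, plus strand), a GTPase-activating protein, which fell by 8.05 ± 1.10 (SE) on the log2(RPKM + 1) scale (limma, adjusted p = 4.99e-05). It was at 0 and 6.22 RPKM with early VC and at 713, 880 and 573 RPKM with late VC, and at 0, 1.9 and 1.89 RPKM with TSA alone. This entry was counted on 135 bases, and with both Arhgap1 entries summed the early VC embryos were at 219 and 18.4 RPKM and the call was lost. Leaving out any 1 of the 3 late VC embryos also ended it, with adjusted p = 0.256, 0.572 and 0.244 without replicates 1, 2 and 3 in limma.

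Apart from Arhgap1, the named transcripts of that comparison did not pass the threshold in the test as described. Zfp57 was higher with early VC than with late VC, at 2362 and 719 RPKM against 297, 2.54 and 50.9 RPKM (limma, adjusted p = 0.0588), and its entry was counted on 253 bases. It was past the threshold under 4 of 17 alternatives, with adjusted p from 1.03e-06 to 0.999. H2-Q8 and the named entry of Ankrd6 were at 0 in all 3 late VC embryos. With all Ankrd6 entries summed, the late VC embryos were at 1.4491, 51.404 and 13.501 RPKM, against 4359.9 and 138 RPKM with early VC. Selenow, a small selenoprotein, was at 561 and 250 RPKM against 6.86, 0.73 and 7.28 RPKM, and Rsrc2 was at 656 and 313 RPKM against 15.7, 7.41 and 0.426 RPKM. In the other direction, Canx, the lectin chaperone calnexin, was at 2.82 and 293 RPKM against 741, 751 and 381 RPKM, and was past the threshold under 3 of 17 alternatives, with adjusted p from 3.2e-11 to 1. Mfap2, a protein of elastic microfibrils, was at 1.45 and 1.59 RPKM against 187, 197 and 95.2 RPKM, Rps15 was at 5.28 and 21.1 RPKM against 199, 314 and 155 RPKM, and Spin1, a reader of histone methylation, was at 1432 and 924 RPKM against 2293, 2234 and 2972 RPKM.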

How the data were processed

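Single SCNT embryos were sequenced with 1 library each after amplification. The authors removed low-quality bases and adaptors, aligned to mm9 (TopHat2 in the submitters' processing notes), counted reads on exons of the UCSC annotation and deposited RPKM values per transcript. These were analysed here as log2(RPKM + 1). Groups and replicate numbers came from the labels, and pools from the library identifier. Of the 25650 entries, 25250 matched a gene symbol.

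Transcripts at 1 RPKM or more in at least 2 of the 5 embryos compared entered limma 3.58.1 under R 4.3.3, with eBayes and a trend and Benjamini-Hochberg adjustment at 0.05. The test and the recovery of reads were checked on simulated data. RPKM values are multiples of 1 read, and 14531 of 14532 entries (99.99%) gave whole reads at a whole length within 0.001 reads. Taking 3 reads as the limit of detection, a 1 kb transcript was seen from 0.229 RPKM in the deepest to 0.993 RPKM in the shallowest of the 5 libraries, which covers counting error only. Named transcripts were the 12 per direction with the smallest p-values (5 against late VC) among those whose groups did not overlap in the entry or the gene sum and whose higher group had a mean of at least 5 RPKM, up to 2 per direction in each gene list, and Kdm3b. Lars2, Srsf5 and second entries were named after their values were seen. The members and lists were chosen with earlier results of these data known. Gene positions are from GENCODE vM1 on NCBIM37 (mm9). Alternatives were other pseudocounts, filters, scalings, a replicate block, 1 fit of all 14 embryos, no trend, summed entries, limma-voom on recovered reads and leaving out each embryo. The authors tested counts with edgeR, which were not used here. Python 3.11.15, pandas 2.3.3 and scipy 1.17.1 were used.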

Additional observations from a re-analysis of the deposited data

Results flagged for a closer look

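Arhgap1 (NM_001145902) differed between the 2 timings of VC added to TSA, by a log2 difference of -8.05 (early minus late, limma, adjusted p = 4.99e-05), in the test between these groups, with both early VC embryos below all 3 late VC embryos. The adjusted p ranged from 2.32e-17 to 0.848 over 17 alternatives, of which 9 were past the threshold.

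The single embryo given VC(0-8 h) without TSA enters no comparison. Of the 12 transcripts named as higher with early VC, 5 were at 5 RPKM or more in it and above all 3 control embryos. The share of all tested transcripts that did the same was not counted. This embryo had 6244 transcripts at 1 RPKM or more, against 5197, 3819 and 5439 in control replicates 1 to 3. Txnl4a was at 1130 RPKM in that embryo, and at 0, 25.5 and 0 RPKM in control replicates 1 to 3. The named entry of Nfe2l1 was at 799.7 RPKM, that of Bclaf1 at 372.6 RPKM and Atpif1 at 189 RPKM. With all Nfe2l1 entries summed, the VC(0-8 h) embryo was at 1419.9 RPKM, below the 3887.5 RPKM of control replicate 1. Bclaf1 summed stayed above all 3 controls, at 511.83 RPKM against 31.884, 212.12 and 136.81 RPKM. Bola2 was at 36.92 RPKM, close to the 31.7 RPKM of control replicate 1. H2-Q8 and the named entries of Zkscan5 and Ankrd6 were at 0 in the same embryo, where all Ankrd6 entries summed to 4.8764 RPKM. With 1 embryo there is no test of any of these.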

How the results depend on the processing

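Of the alternatives for early VC against TSA alone, 0 higher and 0 lower transcripts became 0 and 2 with a pseudocount of 0.1, 182 and 2 with a filter of 1 RPKM in every embryo of either group, 1 and 1 with the replicate block, 8 and 0 in a single fit of all 14 embryos, 80 and 5 with limma-voom, and 3 and 2 when 3 or more embryos had to reach 1 RPKM, which was chosen after seeing the data. Leaving out 1 embryo gave 0 to 2 higher and 0 to 2 lower. The cause was not tested. The filter of 1 RPKM in every embryo of either group used the group labels. It kept what reached 1 RPKM in both early VC embryos or in all 3 of the other group. Such a filter favours transcripts that separate the groups, and the higher ones pass it more easily. Its counts are therefore not comparable with those of a filter blind to the groups. Sirt7 and H1f8 were past the threshold under that filter only. For early against late VC, 0 higher and 1 lower became 4 and 8 with the replicate block, 3 and 0 in the single fit, 22 and 8 with limma-voom, 4 and 6 with that stricter filter, 1 and 0 with entries summed, and 0 and 0 with no filter or without a trend. Leaving out 1 embryo gave 0 to 5 higher and 0 to 41 lower, the 41 without TSA(0-8 h)+VC(0-8 h) replicate 2. The difference in detected transcripts stayed above 0 throughout, between 863 and 2727 when 1 embryo was left out. Leaving out 1 embryo or pairing by replicate could not reverse it, because both early VC embryos stood above all 3 TSA embryos. Of the 24 transcripts with the smallest p-values against TSA alone and the 10 against late VC, none changed sign, with Ccdc82 at exactly 0 after quantile normalization. Their choice by groups that do not overlap fixed this under several alternatives, among them leaving out 1 embryo, the block and summed entries. Of the 25 other transcripts named against TSA alone, Kdm3b turned from 0.27 to -0.64 with quantile normalization, -0.37 with median-ratio scaling, and -0.41 with the replicate block, and ranged from -0.41 to 1.63 in the 3 fits with 1 embryo left out that kept it past the filter, below 0 without TSA(0-8 h) replicate 2 (-0.38) or 3. Cbx3, at -1.11, ranged from -2.39 to 0.16, above 0 without TSA(0-8 h)+VC(0-8 h) replicate 2. Among these 25, Sirt7, Dffa, H1f8, Sf3a2, Lars2 and Srsf5 were past the threshold under 1 or 2 alternatives each. At an unadjusted p under 0.05, the 409 higher and 33 lower transcripts against TSA alone became 691 and 46 with 1 RPKM in every embryo of either group, 138 and 66 with the block, 146 and 69 with quantile normalization, 175 and 99 with median-ratio scaling, 434 and 62 in the single fit, 531 and 67 with limma-voom, and 92 and 42 with the stricter filter. Without TSA(0-8 h)+VC(0-8 h) replicate 1 they were 104 and 15, without its replicate 2 they were 65 and 59, and without TSA(0-8 h) replicates 1, 2 and 3 they were 236 and 55, 119 and 43, and 225 and 58. Against late VC, 189 and 119 became 381 and 165, 122 and 103, and 132 and 288 under the every-embryo filter, the block and without TSA(0-8 h)+VC(0-8 h) replicate 2. Without the other embryo of that group they were 79 and 72, and without late VC replicates 1, 2 and 3 they were 86 and 61, 100 and 75, and 98 and 86.

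Of these 5 embryos the same-numbered ones share a pool. Over all entries they correlated at 0.671 and 0.747, but their deviations from the group means correlated by only 0.027 and 0.046, and with 2 pairs it is not settled whether the numbers pair the embryos. The limits are 2 against 3 embryos, a fit that borrows its spread across transcripts, and unequal depths within each group, so a transcript below the floor of a shallow library was not detectable there. TSA(0-8 h) replicate 3 has no early VC embryo in its pool.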
